A study of Caenorhabditis elegans with 95 samples.

Results

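The 40 RNA-seq libraries compared here come from *C. elegans* recombinant intercross advanced inbred lines (RIAILs), 20 with the highest and 20 with the lowest level of *fipp-1*, out of 85 RIAILs with 1 library each and 95 libraries in all. The lines were selected on the level of *fipp-1* itself, given as CPM, its count divided by the total count of the library and scaled to a total of 1000000. RIAILs descend from crosses of QX1430, which has an N2 Bristol background with confounder genes deleted, and the Hawaiian strain CB4856, so each line is inbred with its own mix of parental alleles. All 95 libraries came from worms given 15 μg/mL doxycycline (Dox), an antibiotic that impairs translation in mitochondria, and no untreated library is used here. By the study's RNA-seq methods the worms were synchronized and harvested as L4 larvae, whereas the sample labels describe the lifespan protocol, in which 5-fluoro-2'-deoxyuridine (5FU), an inhibitor of DNA synthesis, is added at L4. Whether these worms met 5FU is not settled by the sources. The other libraries were 45 RIAILs ranked between the groups, 4 of N2 and 6 of CB4856.

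The gene *fipp-1* (WBGene00017988, chromosome V:4371807-4373872, plus strand, WBcel235) encodes the worm counterpart of human FIP1L1. That protein belongs to the cleavage and polyadenylation specificity factor, the complex that reads the poly(A) signal of a nascent mRNA, cuts the transcript and brings in poly(A) polymerase to add the tail. Nearly every mRNA passes through this step in the nucleus, alongside transcription by RNA polymerase II and splicing. In this study *fipp-1* was 1 of the candidate genes of a chromosome V locus linked to the lifespan response to Dox, a drug that induces the mitochondrial unfolded protein response (UPRmt), in which mitochondrial chaperones such as *hsp-6* and *hsp-60* are induced from the nucleus.

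*fipp-1* itself ranked the lines, so its values are a description. In the high group it lay at 57 CPM at the lowest, 59.2 at the median and 69.6 at the highest, and in the low group at 38.4, 46.9 and 50.1 CPM. These levels rest on 1307 to 1655 counts per high library and 887 to 1168 per low library, with a counting error of 2.46% to 3.36% over the 85 RIAILs. The mean was 1.32-fold higher in the high group, 60.04 ± 3.22 CPM against 45.5 ± 3.64 CPM in the low group (SD, n = 20 each). The highest lines were QX573, QX591 and QX565 (69.6, 66.3 and 63.7 CPM), and the lowest were QX595, QX501 and QX531 (38.4, 38.4 and 39.3 CPM). At the limits of the groups QX545 (57 CPM) was the last line in the high group and QX554 (56.7 CPM) the first left out, while QX506 (50.1 CPM) was the first in the low group and QX517 (50.2 CPM) the nearest left out.

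The range of *fipp-1* was narrow, and the lines on either side of each limit differed by less than the counting error. Over all 85 RIAILs the coefficient of variation was 10.8%. Among libraries of a single strain it was 15.0% in N2 (60.6 ± 9.10 CPM, SD, n = 4) and 7.89% in CB4856 (51.1 ± 4.03 CPM, SD, n = 6). Libraries of N2 alone ran over 52.5 to 70.04 CPM, a stretch that holds the whole high group, and the CB4856 libraries ran over 45.2 to 56.1 CPM. Since each RIAIL had 1 library, how much of the difference between lines would recur in a second library of the same lines cannot be told apart from the spread between libraries.

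**Figure D1:**
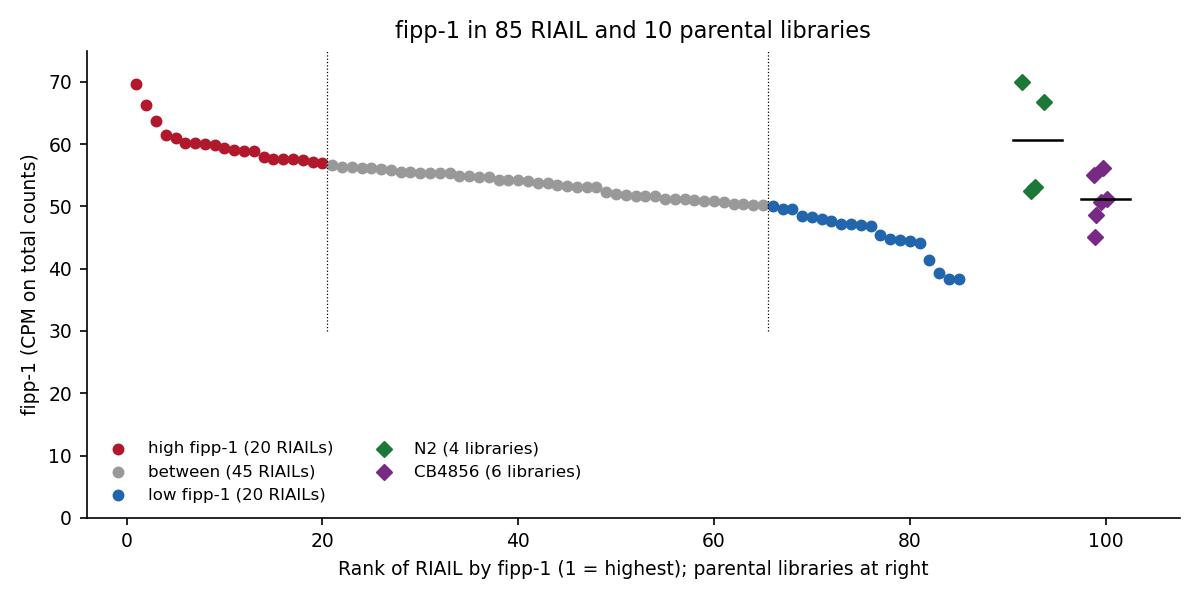
Level of *fipp-1* in CPM on total counts (y axis) for 85 RIAILs by rank (x axis, 1 is the highest), with the 20 high lines in red, the 45 between in grey and the 20 low lines in blue; diamonds are single parental libraries and the bars their means. The 4 N2 libraries spread over 52.5 to 70.04 CPM, about as far as the RIAILs from the middle of the ranking to its top.

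The groups were not even across library series, the letter A to G in the library name. Series A gave 0 high and 4 low lines and series B 5 high and 2 low, and the other 5 series gave 2 to 6 high and 1 to 4 low lines each. Median *fipp-1* over the RIAILs of a series ran from 47.2 CPM in series A to 57.2 CPM in series B. Depth was nearly equal, with totals of 22545680 to 23803818 in the high group and 22121202 to 23575304 in the low group. QX501 and QX505, which had the most transcripts of 15 male genes (a sum of 216 and 108 on the scale given next, against at most 31.7 in the high group), were both in the low group. For all genes but *fipp-1*, levels are given below as TMM-scaled CPM, in which the total is corrected for composition by the trimmed mean of M values (TMM). The TMM factor of the fit to the 40 libraries was 1.04 at the median in the high group and 0.975 in the low group. A TMM factor computed over the 85 RIAILs went with *fipp-1* CPM at r = 0.459, as a description. On the TMM scale *fipp-1* was 1.25-fold higher in the high group, at 52.7 to 68.7 against 38.03 to 51.4 in the low group, still without overlap.

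Many genes differed between the groups, mostly by a small amount. Of 15529 genes tested with edgeR's quasi-likelihood test, 1494 were higher in the high group (9.62%) and 1480 were lower (9.53%) at a Benjamini-Hochberg adjusted p under 0.05, 19.2% in either direction. The median difference was 0.25 on the log2 scale for genes called higher and -0.39 for those called lower, and 79.2% of the 2974 called genes changed by less than 1.5-fold. The groups did not overlap in 0 genes of 15529 in either direction, 0%. The split between directions depended on the scaling. On total counts without TMM the median difference of all tested genes was 0.08 in place of -0.00, and 2992 genes were higher (19.3%) and 757 lower (4.87%), 79.8% of calls higher against 50.2% with TMM. All differences below are relative to the TMM scale unless stated. By the study's methods each line was grown and harvested by itself, and with 1 library a line the p-values measure the spread between lines, biological and technical together. The RNA is of whole worms, so fewer cells of a type and less RNA per cell cannot be told apart.

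Genes with the smallest p that were higher with *fipp-1* included regulators of RNA interference and chromatin. *eri-9*, part of the ERI complex that makes endogenous small interfering RNAs, had 23.4, 31.2 and 44.3 TMM-scaled CPM in the high group (lowest, median and highest) against 19.3, 22.1 and 29.6 in the low group. For *eri-9*, 12 high libraries lay above all 20 low ones and 11 low libraries lay below all 20 high ones, and the difference was 0.44 ± 0.06 on the log2 scale (SE, adjusted p = 0.000199). *crn-1*, the homologue of flap endonuclease FEN-1, had 28.2, 39.2 and 47.7 in the high group against 21.4, 28.9 and 37.8 in the low group, with 11 high libraries above all low ones (0.45 ± 0.07, adjusted p = 0.000199). The groups overlapped for both. *pbrm-1*, a polybromo homologue of chromatin remodeling complexes, had 81.96, 90.3 and 109.7 in the high group against 66.5, 75.5 and 94.7 in the low group, with 16 low libraries below all 20 high ones (0.27 ± 0.04, adjusted p = 0.000199). *swsn-4*, the ATPase of the SWI/SNF complex, had a median of 109 against 86.1 in the low group, again with 16 low libraries below all high ones (0.27 ± 0.04). *itsn-1*, the intersectin of endocytosis, and *mtm-9*, a myotubularin-related protein, differed by 0.29 ± 0.05 and 0.30 ± 0.05, and *M04F3.5* and *F53H1.4*, to which no role is given here, by 0.33 ± 0.05 and 0.28 ± 0.04.

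By mean log2 CPM on total counts, these 8 genes were above the low group in each of the 6 series that held both groups. On that scale 11.2% of all tested genes were above in all 6 series and 3.34% below. The 8 genes were picked by smallest p in the same libraries. With the lines ranked by TMM-scaled *fipp-1* in place of CPM, where 1441 genes were higher (9.31%) and 1541 lower (9.95%) and 14 of the high and 15 of the low lines were kept, all 8 were still called higher, with differences of 0.17 to 0.31 on the log2 scale. That setting moved *eri-9* to 0.23. Over the whole table, 790 of the 1494 higher and 882 of the 1480 lower genes were called in the same direction under it.

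Genes with the smallest p that were lower with *fipp-1* included small secreted proteins and membrane proteins. *ttr-44*, of the transthyretin-related family of small secreted proteins, had 83.4, 129.2 and 212 TMM-scaled CPM in the high group against 136, 228 and 321 in the low group. For *ttr-44*, 12 low libraries lay above all high ones, and the difference was -0.65 ± 0.10 (adjusted p = 0.000199). *F55G11.8* had 32.5, 51.6 and 67.7 in the high group against 56.95, 73.9 and 116 in the low group, with 15 low libraries above all high ones and 14 high libraries below all low ones (-0.60 ± 0.09, adjusted p = 0.000199). By the number of libraries beyond the range of the other group, that was the clearest separation among the 16 genes of smallest p. *ttr-48* and *inx-15*, an innexin of gap junctions, differed by -0.45 ± 0.07 and -0.49 ± 0.08. *nstp-2*, a nucleotide sugar transporter, *hint-3*, of the histidine triad family, *C26C6.9* and *C05C12.4* differed by -0.33 ± 0.05, -0.33 ± 0.05, -0.43 ± 0.07 and -0.56 ± 0.09. All 8 kept their call with the library series as a block, at differences of -0.58 to -0.25. With scores of developmental stage as covariates, described further on, *ttr-44* (adjusted p = 0.0816), *inx-15* (0.148), *C05C12.4* (0.105) and *C26C6.9* (0.0577) lost it in edgeR's test.

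**Figure D2:**
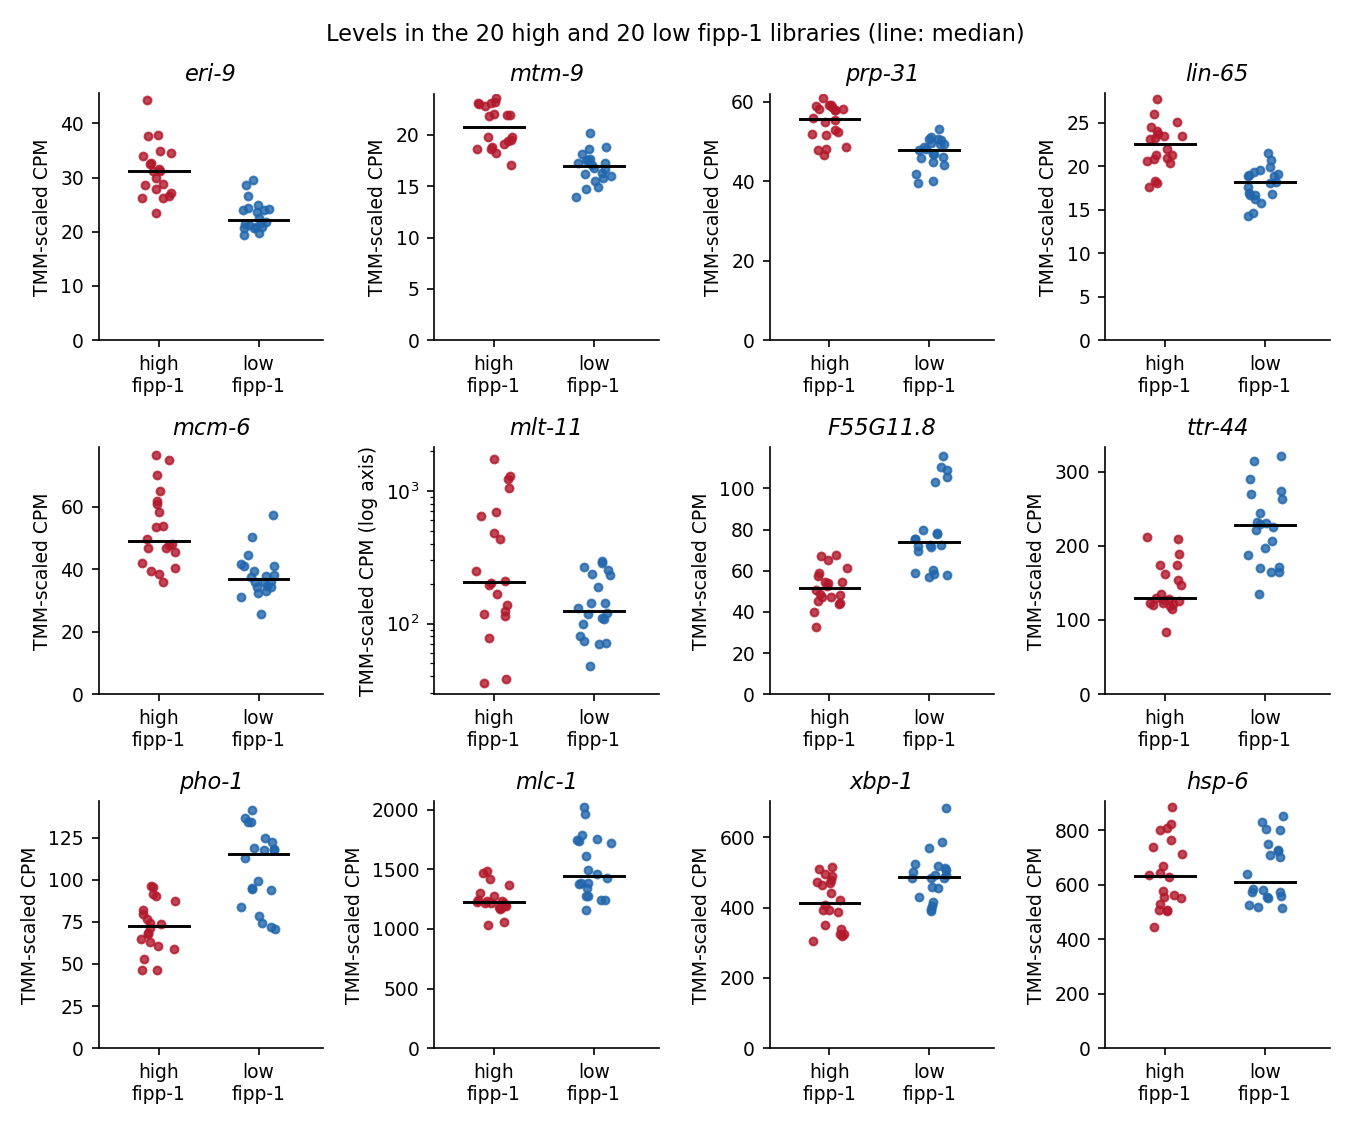
TMM-scaled CPM (y axes, logarithmic for *mlt-11*) of 12 genes in each library of the high and the low *fipp-1* group, with the median as a line. The groups overlap for each gene shown: *eri-9* has 12 high libraries above all low ones, *mlt-11* is spread over 35.7 to 1748 in the high group, and *hsp-6* has nearly equal medians.

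The largest folds were carried by a part of the libraries. The folds were ranked among genes called higher with a mean of at least 5 CPM on total counts. *mlt-11*, a protease inhibitor needed for molting, had 35.7, 206.6 and 1748 TMM-scaled CPM in the high group against 47.7, 125 and 296 in the low group. The high group thus held both the highest and the lowest *mlt-11* levels, with 8 high libraries above all low ones and 2 below all low ones, and the difference was 1.59 ± 0.39 (adjusted p = 0.0054). The furrow collagen *dpy-3*, the collagen *col-128*, *idpp-1*, *T14B4.19* and *T12E12.6* also had 8 high libraries each above all low ones, with differences of 1.52 to 1.60. *ssp-19*, of a family of sperm-specific proteins, had 5 such libraries (1.62 ± 0.55, adjusted p = 0.0341). *ctsa-4.2*, of the cathepsin A type of carboxypeptidases, was different in shape (1.88 ± 0.42, adjusted p = 0.0028). Its median was 73.8 in the high group against 11.8 in the low group, and its mean 63.6 against 17.2. The high group spanned 4.75 to 118.8 and the low group 5.84 to 121.7, where the highest low value was that of a single library, QX540. Of these 8 genes voom called 1 and the fit with the library series as a block called 1, *ctsa-4.2* (adjusted p = 0.00177), and *mlt-11* was at an adjusted p of 0.0735 under the block. With stage scores as covariates 0 of the 8 were called in edgeR's test. *mlt-11* and *dpy-3* belong to the molting list and *ssp-19* to the sperm list behind these scores, so the loss of their calls cannot be read. With lines ranked by TMM-scaled *fipp-1*, edgeR called 6 of the 8, without *ctsa-4.2* (1.28, adjusted p = 0.0587).

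On the lower side, 3 of the largest folds rested on the libraries with male transcripts, QX501 and QX505. *Y39B6A.9* stood at 263, 99.3 and 35.5 TMM-scaled CPM in the low lines QX501, QX505 and QX540, and at 5.34 or less in the other 17 low lines, against 1.03 to 7.95 in the high group. *B0222.10* and *R01E6.5* had the same 3 low lines at the top. Without QX501 and QX505 the difference of *Y39B6A.9* was -0.91 in place of -3.30 (adjusted p = 0.0864), that of *B0222.10* -0.88 in place of -3.14 (adjusted p = 0.0628) and that of *R01E6.5* -0.25 in place of -1.72 (adjusted p = 0.416). *ugt-43*, a UDP-glucuronosyltransferase, was highest in the same 3 low lines, at 66.2 in QX501, 25.2 in QX540 and 24.7 in QX505, against at most 7.23 in the high group. Its difference was -1.19 without QX501 and QX505 and -1.83 with them, and it kept its call. *W08E12.2* was highest in the low lines QX539, QX564 and QX546, all of series C, at 73.8, 47.4 and 24.2 (-2.26 ± 0.59, adjusted p = 0.00796). *idpp-12* and *F48G7.8* were likewise highest in QX539 and QX564, and *C10C5.3* in 3 low lines of series A. Of these 8 genes the series block left 1 called and the stage scores 3, in edgeR's test, and voom called 5.

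Of the factors that act beside FIPP-1 a majority were higher with it, by small amounts. Of 22 cleavage and polyadenylation factors tested, 14 were higher in the high group and 0 lower where 9.62% of all genes were higher, and the list's median was 0.16 on the log2 scale against -0.00 for all genes. *cpf-1*, a subunit of the cleavage stimulation factor, had 19.5, 26.03 and 34.8 TMM-scaled CPM in the high group against 18.95, 22.4 and 26.5 in the low group (0.24 ± 0.05, adjusted p = 0.00305). Its partners *suf-1* and *cpf-2* differed by 0.19 ± 0.05 and 0.14 ± 0.04 (adjusted p = 0.0048 and 0.00533). *cpsf-3*, the endonuclease that makes the cut, had 27.7, 32.2 and 38.02 against 20.96, 27.6 and 34.6 in the low group (0.18 ± 0.05, adjusted p = 0.00673). The groups overlapped for all 4. The scaffold *symk-1* (0.17 ± 0.05), the largest CPSF subunit *cpsf-1* (0.20 ± 0.06), the cleavage factor I subunit *cfim-1* (0.22 ± 0.07), the nuclear poly(A)-binding protein *pabp-2* (0.15 ± 0.05) and the exonuclease *xrn-2* of transcription termination (0.21 ± 0.07) were also higher, as were *cpsf-4*, *pfs-2*, *ssup-72*, *cids-1* and *cids-2* by 0.13 to 0.24. Not past the threshold were *cpsf-2* (0.12 ± 0.05), *cfim-2* (0.16 ± 0.06), the poly(A) polymerase *pap-1* (0.07 ± 0.04), *pcf-11* (0.01 ± 0.07), *clpf-1* (0.06 ± 0.05), *rbpl-1* (0.08 ± 0.04) and the cytoplasmic poly(A)-binding proteins *pab-1* (0.01 ± 0.05) and *pab-2* (-0.08 ± 0.07). Summed over all 23 listed genes, of which 22 were tested, the list lay at 3457 to 4566 in the high group (median 3890) against 3326 to 4587 in the low group (median 3812), so that its total overlapped nearly in full. The untested gene may be *fipp-1*, which ranked the lines. A sum weighs abundant genes most, and the 4 factors with levels given above add little to it, so the total does not describe them.

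Splicing and transcription factors showed a like pattern, set against the 9.62% of all genes that were higher. Of 43 spliceosome and mRNA processing genes, 20 were higher and 0 lower (median 0.15), and all 43 had a difference above 0 on the TMM scale. *prp-31*, of the U4/U6 particle, had 46.5, 55.7 and 61.03 TMM-scaled CPM in the high group against 39.5, 47.98 and 53.1 in the low group, with 12 high libraries above all low ones (0.21 ± 0.04, adjusted p = 0.000581). The SR protein gene *rsp-7* (0.16 ± 0.03), *prp-38* (0.27 ± 0.05) and *skp-1* (0.20 ± 0.04) were called as well. Of 31 RNA polymerase II and elongation genes, 17 were higher and 0 lower (median 0.15), among them *cit-1.1*, a cyclin T (0.18 ± 0.04, adjusted p = 0.00103), and *ctr-9* of the PAF1 complex (0.21 ± 0.05, adjusted p = 0.00211). Of 33 proteasome subunits, 9 were higher and 0 lower (median 0.09), with *rpt-2* at 0.14 ± 0.04 and *rpn-1* at 0.13 ± 0.04.

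Genes of cell division and the germ line had larger list medians. Of 32 replication and cell cycle genes, 24 were higher and 0 lower, where 9.62% of all genes were higher and 9.53% lower. The median of this list was 0.32 on the log2 scale. *pri-2*, a primase subunit, had 27.2, 35.1 and 45.3 TMM-scaled CPM in the high group against 21.6, 28.96 and 33.8 in the low group (0.36 ± 0.07, adjusted p = 0.000478). *pri-1*, the other primase subunit, differed by 0.47 ± 0.09, and *mcm-6* and *mcm-3* of the replicative helicase by 0.47 ± 0.09 and 0.46 ± 0.10. Of 33 germline genes, 15 were higher and 0 lower (median 0.22), among them the P granule gene *pgl-1* (0.39 ± 0.09), *gls-1* (0.20 ± 0.04) and the translational repressor *fbf-1* (0.26 ± 0.07). Of 24 oocyte and maternal genes, 7 were higher and 1 lower (median 0.72), with *oma-2* at 0.91 ± 0.28 and *egg-2* at 0.78 ± 0.23, but voom called 0 higher and 1 lower, and without series A, or without QX501 and QX505, 2 were higher. The exception was *skn-1*, which the intestine also expresses, at -0.19 ± 0.06 (adjusted p = 0.0146). Of 49 sperm genes 1 was higher and 0 lower.

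The summed levels of these lists overlapped widely between the groups. Replication genes summed to 1080 to 2214 TMM-scaled CPM in the high group (median 1447) against 929 to 1629 in the low group (median 1249), germline genes to 2589 to 5283 (median 3672) against 2954 to 4191 (median 3223), and oocyte genes to 517 to 4789 (median 1238) against 784 to 3002 (median 1112). The counts also depended on how *fipp-1* was scaled. With lines ranked by TMM-scaled CPM, where 9.31% of all genes were higher, 5 replication genes, 5 germline genes and 0 oocyte genes were higher. Under that ranking 9 cleavage and polyadenylation, 25 splicing, 11 RNA polymerase II and 25 proteasome genes were higher.

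Molting genes had the largest median of the 25 lists, 0.91, with 17 of 30 higher and 2 lower. Over all genes 9.62% were higher and 9.53% lower. *nhr-23*, the nuclear receptor that drives molting, had 31.5, 50.8 and 94.6 TMM-scaled CPM in the high group against 30.5, 39.6 and 49.4 in the low group (0.43 ± 0.10, adjusted p = 0.00248). The furrow collagen *dpy-8* had 13.7, 101.3 and 656 against 20.2, 60.3 and 131 in the low group (1.49 ± 0.38, adjusted p = 0.00707). Limma's voom test called 1 molting gene higher and 2 lower, where over all genes it called 1133 higher (7.3%) and 1591 lower (10.2%). Adult collagens had a median of -1.004 with 1 of 12 called, *bli-1*, which was higher (1.25 ± 0.36, adjusted p = 0.0139), whereas voom called 7 lower and 0 higher. The 6 vitellogenins, which encode yolk proteins of the adult, had a median of -0.96 and 0 were called, with 1 at an unadjusted p under 0.05. *vit-2* ranged over 13.98 to 6666 TMM-scaled CPM in the high group and 292 to 11600 in the low group (-0.98 ± 0.57, adjusted p = 0.227). Ranked by TMM-scaled *fipp-1*, with edgeR's test, 6 adult collagens and 4 vitellogenins were lower and 2 adult collagens higher.

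**Figure D3:**
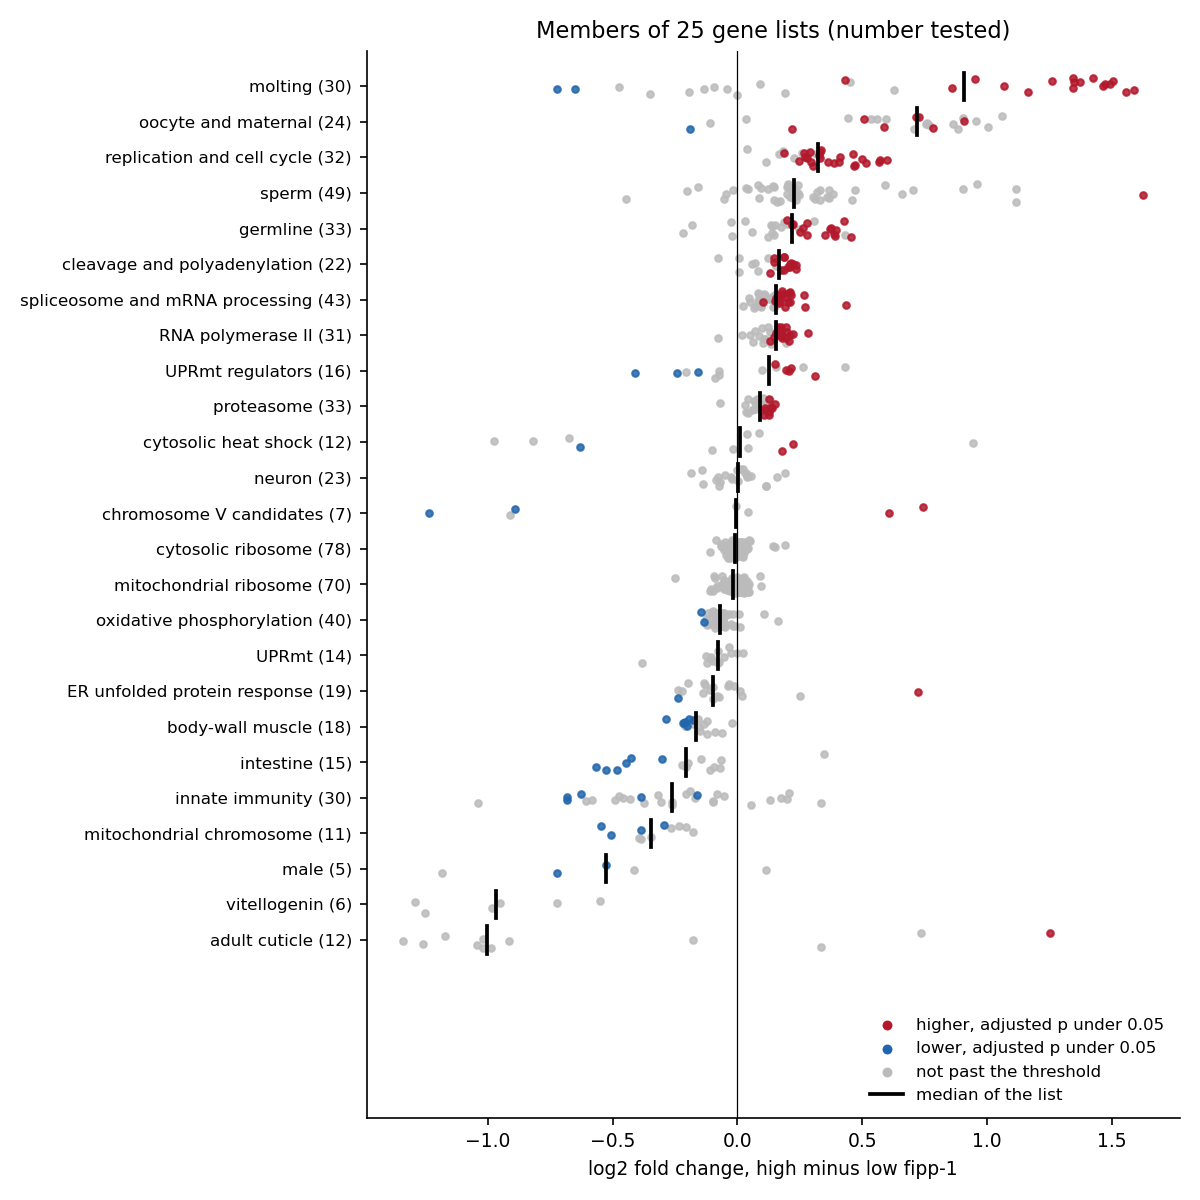
Log2 fold change, high minus low *fipp-1* (x axis), of each tested member of 25 gene lists (y axis, number tested in brackets), with a bar at the list's median. Cleavage and polyadenylation, splicing and RNA polymerase II genes sit close together with medians of 0.15 to 0.16, whereas molting genes are spread over -0.72 to 1.59 and adult cuticle genes over -1.34 to 1.25.

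Genes of differentiated tissues were lower or did not pass the test. Of 18 body-wall muscle genes, 7 were lower and 0 higher (median -0.17), where 9.53% of all genes were lower. *mlc-1*, a myosin light chain, had 1035, 1225 and 1486 TMM-scaled CPM in the high group against 1155, 1444 and 2020 in the low group (-0.29 ± 0.06, adjusted p = 0.00207), and the tropomyosin *lev-11* differed by -0.21 ± 0.05 (adjusted p = 0.00658). Of 15 intestinal genes, 6 were lower and 0 higher (median -0.21). *pho-1*, an intestinal acid phosphatase, had 46.3, 72.5 and 96.0 in the high group against 70.7, 115 and 142 in the low group (-0.56 ± 0.10, adjusted p = 0.000373), the intermediate filament gene *ifb-2* differed by -0.48 ± 0.11, and the GATA factor *elt-7* by -0.45 ± 0.12. Of 23 neuronal genes 0 were called in either direction by edgeR or voom, and 0 had an unadjusted p under 0.05. Muscle genes summed to 23630 to 31650 in the high group (median 27070) against 21300 to 36840 in the low group (median 29420), with wide overlap, and intestinal genes to 6482 to 13100 (median 8837) against 8073 to 14580 (median 11240). With lines ranked by TMM-scaled *fipp-1* 1 muscle and 5 intestinal genes were lower, and without TMM 2 and 6. Of 5 male genes tested out of 15 listed, 2 were lower, *klp-6* (-0.53 ± 0.16) and *try-5* (-0.72 ± 0.25), and without QX501 and QX505, where 8.29% of all genes were higher and 8.72% lower, 2 male genes were higher and 0 lower. The 15 male genes summed to 10.7 to 31.7 in the high group and 9.51 to 216 in the low group.

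The mitochondrial unfolded protein response, which Dox induces, showed no gene past the test in the comparison by CPM. Of its 14 genes 0 passed edgeR's test and 0 passed voom's, 0 had an unadjusted p under 0.05, and the list's median was -0.08. With lines ranked by TMM-scaled *fipp-1*, where 9.31% of all genes were higher, 1 gene was higher and the median was 0.07. *hsp-6*, the mitochondrial Hsp70 chaperone, had 444, 633 and 883 TMM-scaled CPM in the high group against 513, 611 and 853 in the low group, with nearly equal ranges (-0.03 ± 0.08, adjusted p = 0.871). *hsp-60*, the mitochondrial chaperonin, had 190, 326 and 519 against 214, 360 and 551 in the low group (-0.07 ± 0.12, adjusted p = 0.736). Without TMM the sign of both turned, to 0.06 for *hsp-6* and 0.01 for *hsp-60*. *clec-4* encodes a C-type lectin, which was read beside these chaperones in knockdown experiments on *fipp-1*. The paper reports that the knockdown stopped Dox from inducing *hsp-6*, *hsp-60* and *clec-4*. Induction by Dox after knockdown is another measure, which these libraries, all of Dox-treated worms, do not give. The level of *clec-4* was 8.10, 20.4 and 49.7 in the high group against 12.84, 29.2 and 74.8 in the low group (-0.49 ± 0.24, adjusted p = 0.137). Of 16 UPRmt regulators, 5 were higher and 3 lower, where 9.62% of all genes were higher and 9.53% lower. *lin-65*, a nuclear cofactor of the response, had 17.7, 22.6 and 27.7 against 14.2, 18.1 and 21.5 in the low group (0.31 ± 0.05, adjusted p = 0.000322), and the histone methyltransferase gene *met-2*, the demethylase *jmjd-1.2*, the deacetylase *hda-1* and the kinase *gcn-2* were higher by 0.15 to 0.21. *dve-1*, a homeobox factor of the response, was lower (-0.41 ± 0.10, adjusted p = 0.00421), as were *atf-4* (-0.16 ± 0.05) and *set-18* (-0.24 ± 0.09). *atfs-1*, its main transcription factor, was at -0.09 ± 0.06 (adjusted p = 0.308).

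Other mitochondrial genes mostly did not pass the test. Of 40 nuclear genes of oxidative phosphorylation, 0 were higher and 2 lower, *nuo-2* of complex I (-0.15 ± 0.05) and the cytochrome c1 gene *cyc-1* (-0.13 ± 0.05), and the list's median was -0.07. Of 11 genes of the mitochondrial chromosome, 4 were lower and 0 higher, where 9.53% of all genes were lower. *COX3*, a subunit of cytochrome c oxidase, had 795, 1407 and 2245 TMM-scaled CPM in the high group against 894, 1750 and 5335 in the low group (-0.51 ± 0.16, adjusted p = 0.0222), and without series A 0 of these genes were called. Of 70 mitochondrial and 78 cytosolic ribosomal protein genes 0 were called by edgeR or voom, and 1 in each list had an unadjusted p under 0.05. On total counts without TMM 11 cytosolic ribosomal genes were higher. With the library series as a block, where 4.89% of all genes were lower, 6 oxidative phosphorylation and 2 mitochondrial ribosomal genes were lower and 0 higher. With lines ranked by TMM-scaled *fipp-1*, where 9.31% of all genes were higher, 5 mitochondrial ribosomal genes were higher and 0 oxidative phosphorylation genes were called.

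Some innate immunity genes were lower, where 9.53% of all genes were. Of 30 innate immunity genes, 5 were lower and 0 higher (median -0.26). With the library series as a block 2 were lower (4.89% over all genes), without QX501 and QX505 3 (8.72%), without TMM 3 (4.87%) and with stage scores 0 (0.192%). Voom called 4 lower (10.2%), and edgeR 4 without series A (5.04%) and 4 with lines ranked by TMM-scaled *fipp-1* (9.95%). *dod-17* had 15.0, 42.8 and 57.3 TMM-scaled CPM in the high group against 35.3, 63.98 and 115 in the low group (-0.68 ± 0.14, adjusted p = 0.00103), and *clec-66*, a C-type lectin, 37.8, 61.99 and 119.4 against 62.9, 99.7 and 228 (-0.68 ± 0.16, adjusted p = 0.00302). *K08D8.5*, *clec-65* and the p38 kinase gene *pmk-1* differed by -0.63 ± 0.18, -0.39 ± 0.14 and -0.16 ± 0.06. In the endoplasmic reticulum *xbp-1*, the factor spliced by IRE-1, was lower (-0.24 ± 0.07, adjusted p = 0.018) and the chaperone *dnj-27* was higher (0.72 ± 0.23, adjusted p = 0.0233), the 2 calls among 19 genes. Among 12 cytosolic heat shock genes *hsf-1*, its main transcription factor, was higher (0.18 ± 0.04, adjusted p = 0.00116), as was the cochaperone *stip-1* (0.22 ± 0.06), while *hsp-70* was lower (-0.63 ± 0.22, adjusted p = 0.0426). With 1 gene lower in each, neither list exceeded the share of all genes called lower.

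The other candidates of the chromosome V locus moved in both directions, with 2 higher and 2 lower of 7 tested. Over all genes 9.62% were higher and 9.53% lower. The study picked the candidates with these libraries among its data, so they are not independent evidence. Of the 12, 7 had enough counts to be tested, and *oac-12*, *Y47D7A.9*, *Y47D7A.11*, *Y47D7A.2* and *skr-14* did not, with medians of 0 to 6 counts in each group. *neg-1*, a gene of early embryos next to *fipp-1*, had 3.95, 7.76 and 28.02 TMM-scaled CPM in the high group against 3.78, 5.67 and 15.6 in the low group (0.61 ± 0.22, adjusted p = 0.0457). *F32D1.7* beside it had 3.20, 6.46 and 28.02 against 3.31, 4.81 and 14.3 in the low group (0.74 ± 0.25, adjusted p = 0.0326). With lines ranked by TMM-scaled *fipp-1* both calls were lost, at 0.13 for *neg-1* and 0.13 for *F32D1.7*. The 3' ends of *neg-1* and *fipp-1* lie on opposite strands and overlap, and the sources do not state whether the counting used strand, so reads of one and the other cannot be told apart there. *srt-13*, of a chemoreceptor family, was lower with at most 1.63 in the high group and 2.39 in the low group (-1.23 ± 0.35, adjusted p = 0.0137). *Y47D7A.15* was lower, at 26.7, 892 and 1609 against 820, 1422 and 3094 in the low group (-0.89 ± 0.29, adjusted p = 0.0257). *Y47D7A.12* (-0.91 ± 0.34, adjusted p = 0.0508), *F32D1.3* (0.04 ± 0.13) and *F13A2.4* (-0.01 ± 0.20) did not pass the test. Of the 4 candidates called, *srt-13* alone kept its call when lines were ranked by TMM-scaled *fipp-1* and under the series block (adjusted p = 0.0453), *Y47D7A.15* being at 0.052 and 0.0921, and 0 kept it with stage scores in edgeR's test.

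Genes close to *fipp-1* were called in both directions. Within 50 kb on either side, 16 genes were tested, 4 were higher and 1 was lower, against 9.62% higher and 9.53% lower over all genes. Within 250 kb 7 of 57 were higher and 5 lower (8.77%), near the shares over all genes. Besides *neg-1* and *F32D1.7* the higher ones were *mcm-7*, a helicase subunit that replicates DNA with *mcm-6* and *mcm-3* (0.57 ± 0.14, adjusted p = 0.00412), and *F32D1.11* (1.18 ± 0.35, adjusted p = 0.0152), and the lower one was *grl-13*, a ground-like gene, with at most 6.69 TMM-scaled CPM (-1.59 ± 0.46, adjusted p = 0.0152). Within 500 kb the shares were 8.27% higher and 7.52% lower, again near those over all genes. By chromosome the X stood apart, with 64 of 2169 genes higher and 355 lower, against 351 higher and 173 lower of 2506 on chromosome I and 206 and 331 of 3111 on V, as a description.

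Over all 85 RIAILs the genes whose log2 CPM went most closely with *fipp-1* were *Y48C3A.14* (Pearson's r = 0.81), the nucleoporin gene *npp-16* (0.79), *skp-1* (0.77), *prp-31* (0.77) and *thoc-1* of the mRNA export complex THO (0.76). The most negative were *T16G12.4* (-0.59), *ttr-47* (-0.56), *ttr-40* (-0.56), *T19C3.4* (-0.55) and *sft-4*, the homologue of the cargo receptor Surf4 (-0.55). These are correlations over 85 libraries on the total-count scale, which *fipp-1* shares with every gene of its library, and the 40 libraries of the comparison are among them. *npp-16* had 39.8, 46.3 and 57.5 TMM-scaled CPM in the high group against 34.9, 39.3 and 46.1 in the low group, with 13 high libraries above all low ones. *T16G12.4*, at the other end, had 7.69, 10.6 and 32.8 in the high group against 11.5, 26.4 and 64.5 in the low group (-0.99 ± 0.19, adjusted p = 0.000869).

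The 45 RIAILs between the groups and the parental libraries did not enter the comparison, and the slope of each gene on log2 *fipp-1* CPM was fitted in them. In the 45 RIAILs, where *fipp-1* spans only 50.2 to 56.7 CPM, edgeR called 0 of 15947 genes (smallest adjusted p = 0.0992), and voom called 0. At an unadjusted p under 0.05 there were 637 positive and 450 negative slopes with edgeR and 870 in all with voom. The sign followed the comparison of the groups: 94.9% of the 1494 genes called higher had a positive slope, against 54.2% of all genes, and 91.8% of 1479 genes called lower had a negative one. *T19C3.4* (slope -1.36, unadjusted p = 7.77e-05), *Y48C3A.14* (0.85, unadjusted p = 0.00211), *ttr-44* (-2.52, unadjusted p = 0.00753) and *mtm-9* (1.08, unadjusted p = 0.0123) were examples with the same direction, picked after their values were seen. Of the lists, 20 of 22 cleavage and polyadenylation, 37 of 43 splicing, 31 of 32 replication and 24 of 30 molting genes had positive slopes. Germline genes, of which 15 were called higher between the groups, had them in only 21 of 33 cases. Sperm genes, with 1 such call, had them in 41 of 49 cases.

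In the 10 parental libraries, with the strain as a term so that only libraries of the same strain are compared, edgeR called 0 of 15986 genes (smallest adjusted p = 0.189) and voom 0. Slopes with an unadjusted p under 0.05 numbered 926 positive and 1026 negative with edgeR, and 2111 in all with voom. Of the genes called higher 77.8% had a positive slope, against 44.6% of all genes, and of 1477 called lower 87.9% had a negative one. Splicing genes had positive slopes in 40 of 43 cases and replication genes in 31 of 32, but molting genes in 7 of 30. Lists with few or no calls between the groups also had mostly positive slopes, in 78 of 78 cytosolic ribosomal, 68 of 70 mitochondrial ribosomal and 31 of 40 oxidative phosphorylation genes, and *hsp-60* had a slope of 1.59 (unadjusted p = 0.00031). The labels give batch numbers to most parental libraries, which the slopes do not take into account. In both strains *fipp-1* was highest in library series F, at 70.04 CPM in N2 and 56.1 CPM in CB4856, and the part of batch or series in these slopes was not tested.

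Stage scores and library series were not even between the groups, though the ranges of the scores overlapped and their difference was not tested. A molting score, the mean standardized log2 CPM of the molting list, had a median of 0.21 in the high group (range -1.34 to 1.04) against -0.24 in the low group (-1.15 to 0.46), and an oocyte score had a median of -0.01 in the high group (-1.53 to 2.35) against -0.45 in the low group (-1.31 to 1.32). A sperm score had a median of 0.19 in the high group (-3.17 to 1.28) against 0.01 in the low group (-1.68 to 1.02). The high group held both QX520 (molting -1.34, oocyte 2.35) and QX552 (molting 1.04, oocyte -1.53), so it was not of a single stage by these scores. With molting, sperm and oocyte scores as covariates 71 genes were higher (0.413% of 17194 tested) and 33 lower (0.192%), of which 65 and 17 were among the calls without them. Among the 8 higher genes of smallest p, *eri-9* (adjusted p = 0.0355), *M04F3.5* (0.0372), *F53H1.4* (0.0372), *pbrm-1* (0.0465) and *itsn-1* (0.0448) kept their call in edgeR's fit, with the 3 others at 0.05 to 0.0777. Of the 8 lower genes of smallest p, 4 kept it. Of the splicing list 1 gene and of the RNA polymerase II list 2 were then higher, and 0 of the cleavage and polyadenylation, replication and germline lists. The molting, sperm and oocyte lists make up the scores and cannot be read under this fit.

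With the library series as a block, 931 genes were higher (5.59%) and 815 lower (4.89%), sharing 810 and 664 with the calls without it. The block left 11 of 22 cleavage and polyadenylation, 16 splicing, 15 RNA polymerase II, 20 replication and 11 germline genes higher, but 1 molting, 0 oocyte and 0 proteasome genes. Muscle genes had 13 of 18 lower under it. With the block and the 3 scores together edgeR called 0 of 17194 genes, with 1210 higher and 777 lower at an unadjusted p under 0.05, and voom called 0, with 2086 at an unadjusted p under 0.05. How much of the difference goes with *fipp-1* and how much with stage or series cannot be told apart in these libraries. Without series A, which holds 4 low and 0 high lines, 1312 genes were higher (8.44%) and 783 lower (5.04%) in place of 1494 and 1480.

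**Figure D4:**
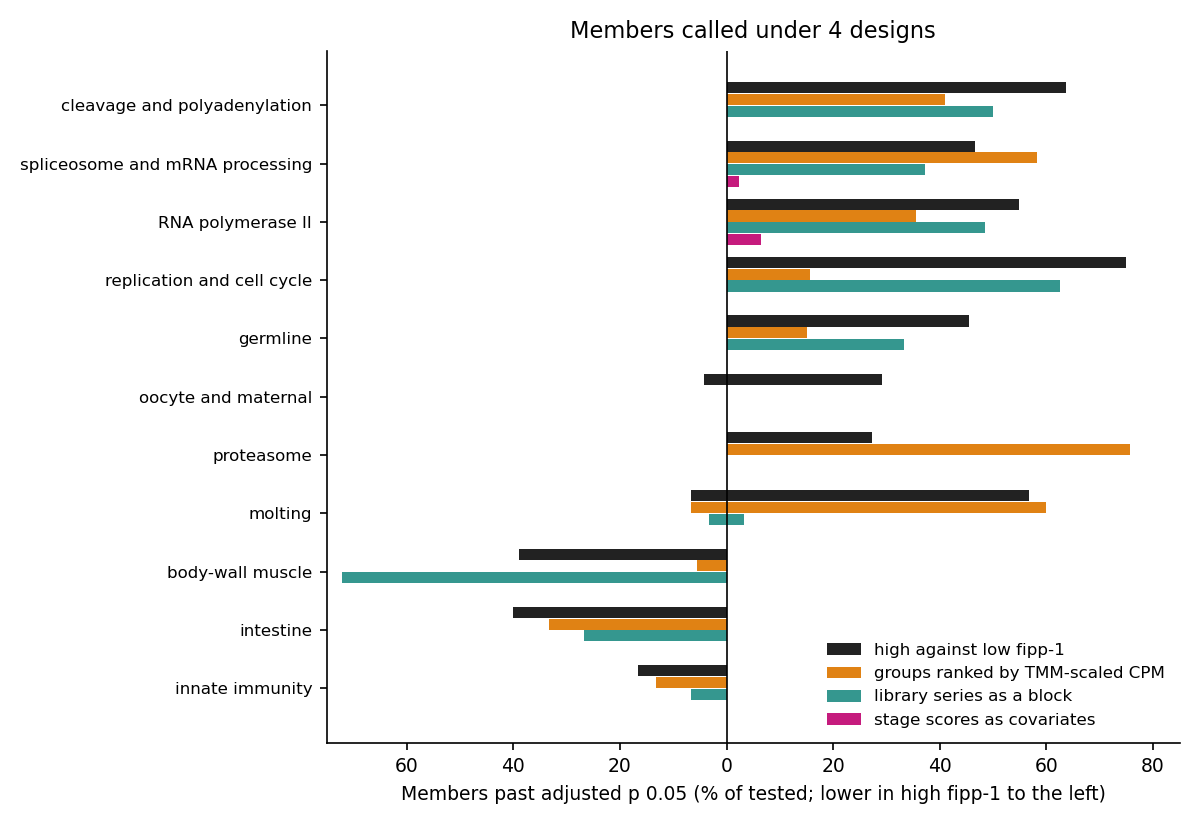
Share of the tested members of 11 lists past an adjusted p of 0.05 (x axis, higher in high *fipp-1* to the right and lower to the left) under 4 designs, shown as bars of 4 colours. Cleavage and polyadenylation, splicing and RNA polymerase II genes keep calls under 3 designs, whereas with stage scores as covariates 0 to 2 members of any list shown are called. The molting and oocyte lists make up the scores, so their lack of calls under that design cannot be read.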

How the data were processed

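RNA-seq counts per gene were deposited by the authors for 95 libraries of Dox-treated worms, as whole numbers with no normalization. Per the submitters' processing notes, reads were checked with FastQC and aligned with STAR 2.73a to WBcel235; the counter, its strand setting and the annotation release were not found. Groups came from the genotype labels. Of the 46904 genes listed, 16622 had a count of 0 throughout. Totals of the 40 compared libraries lay between 22121202 and 23803818, and the counting error of *fipp-1* in a RIAIL was 2.46% to 3.36%.

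The 85 RIAILs were ranked by *fipp-1* CPM, and 20 high and 20 low lines were compared with edgeR 4.0.16 (R 4.3.3), using TMM factors, the filterByExpr filter and the two-sided quasi-likelihood F test (glmQLFit and glmQLFTest), with Benjamini-Hochberg adjustment over all 15529 genes tested other than *fipp-1*. Calls were made at an adjusted p under 0.05. Slopes on log2 *fipp-1* CPM were fitted likewise, with the strain as a term in parental libraries. Correlations used log2 CPM with a prior count of 2. Limma 3.58.1 (voom), DESeq2 1.42.0 and other settings were alternatives. The scripts were tested on simulated data.

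Named genes were the 8 of smallest p and the 8 of largest fold in each direction and the 5 of highest and of lowest correlation, these with a mean of at least 5 CPM, and at any level *hsp-6*, *hsp-60*, *clec-4*, the locus candidates and up to 4 list members of smallest p. All members of the cleavage and polyadenylation list, all called UPRmt regulators and called genes within 50 kb were named besides, as were *pmk-1* and *set-18*, after their values were seen. The members and lists were chosen with earlier results of these data known. The mitochondrial chromosome held 3 called genes named only by identifier in the file, which are not printed.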

Additional observations from a re-analysis of the deposited data

How the results depend on the processing

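No paired analysis was possible because each RIAIL had 1 library, and the shared replicate numbers only belong to parental libraries, which enter no test between groups. Against 1494 higher and 1480 lower genes, the calls were 773 and 658 with 10 lines a group, 931 and 815 with the library series as a block, 71 and 33 with stage scores, 0 and 0 with both, and 2367 and 2693 for a slope over all 85 RIAILs. Of the alternatives added after seeing the data, leaving out series A left 783 lower genes, leaving out TMM gave 2992 higher and 757 lower, and leaving out QX552 gave 1558 and 1487. Limma-voom, DESeq2, RLE factors, other filters, 30 lines a group, ranking by TMM-scaled CPM and leaving out QX501 and QX505 kept both counts within 1.5 times. In parental libraries, leaving out each replicate gave 0 to 1 positive and 0 to 0 negative slopes, the 1 being *F54D10.7* without N2 replicate 4 (edgeR, adjusted p = 0.0424). Of 94 called named genes, 77 lost their call with stage scores, 94 with scores and series, 32 with the series block, 23 when ranked by TMM-scaled CPM, 20 with voom and 13 without series A, and the cause was not tested. Some of these genes are members of the lists behind the scores, and their loss with scores cannot be read.

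A few small differences changed sign. *hsp-6* was at 0.14 when ranked by TMM-scaled CPM, 0.11 with 10 lines a group, 0.0131 with 30, 0.0216 with stage scores, 0.0611 with scores and series, 0.0818 for the slope, 0.0094 without series A and 0.0603 without TMM. *hsp-60* was at 0.26 ranked by TMM-scaled CPM, 0.12 with 10 lines, 0.0503 with 30, 0.0338 with scores and series, 0.0439 for the slope and 0.0105 without TMM. *F32D1.3* was at -0.16 ranked by TMM-scaled CPM, -0.32 with 10 lines and -0.32 for the slope. *F13A2.4* was at 0.0087 with DESeq2, 0.0094 with RLE factors, 0.0081 without a filter, 0.15 with 10 lines, 0.16 for the slope, 0.0717 without TMM and 0.0602 without QX552. With scores and series *neg-1* was at -0.0544 and *hsp-70* at 0.0595. *fipp-1* had at least 887 counts in each RIAIL. Lines on either side of each group limit still differed in it by less than the counting error. Of the 12 other locus candidates, 7 had enough counts to be tested. The difference of *fipp-1* between single libraries of the lines was not repeated.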
